A study of Mus musculus with 6 samples.

Results

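The p200 family, also called the Ifi200 or HIN domain family, is a cluster of interferon-inducible genes on mouse chromosome 1. Its 9 members described here are Aim2, Ifi203, Mndal, Ifi206, Ifi209, Ifi214, Ifi208, Ifi213 and Ifi204, taken from the 49671 genes of the count table by their symbols. The family was selected on the measured difference between genotypes in these same counts, so its differences between genotypes are given as a description, with no test of the family. RNA was sequenced from CD8 T cells that carry OT-I, a transgenic receptor for an ovalbumin peptide, in 3 libraries labelled CD73 KO and 3 labelled WT. Every library came from splenic cells given the peptide at 10 ng/mL each day up to day 5, with the cytokines IL-7 (5 ng/mL) plus IL-15 (5 ng/mL), and replated after 48 hours, a scheme meant to push T cells into exhaustion. Both genotypes share the OT-I receptor and the culture, and live cells were sorted before lysis. The design of the CD73 allele, the background strain and the age of the mice were not given in the sources used here. The labels do not say whether libraries of a genotype came from separate mice or cultures, so each p-value is set by how far these libraries differ, and that may be technical.

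Most p200 proteins pair an N-terminal pyrin domain, through which proteins assemble with one another, with a C-terminal HIN domain that binds DNA. AIM2 is the best known: on cytosolic DNA it recruits the adaptor ASC and caspase-1 into an inflammasome, which cleaves gasdermin D and matures IL-18. The other mouse members are mostly nuclear or cytosolic proteins studied as DNA sensors and regulators of transcription and cell growth, and type I interferon induces many of them in immune cells.

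Libraries held 10202128 to 19382950 counts in CD73 KO and 6934150 to 13039990 in WT. Levels are CPM, counts scaled to a common library size with TMM factors, and 3 counts, taken as the detection floor, equalled 0.160 to 0.427 CPM. Nt5e, which encodes CD73 (chromosome 9, 88327197 to 88372092), stood at 3.67, 8.45 and 8.47 CPM in CD73 KO and at 22.6, 5.22 and 37.4 CPM in WT. The library labelled WT replicate 2 thus lay within the CD73 KO range for the targeted gene. All 9 CD8 T cell markers were expressed, with a summed level of 5622 to 6127 CPM in CD73 KO and 5436 to 5805 CPM in WT. Myeloid cells are a known site of high p200 expression. Their 9 markers summed to 0.924 to 1.54 CPM in CD73 KO and 1.28 to 3.89 CPM in WT, with Lyz2, Csf1r, C1qa and Spi1 at 0 in every library. The 7 dendritic cell markers summed to 5.59 to 8.76 CPM in CD73 KO and 8.32 to 20.5 CPM in WT, and Siglech, Xcr1 and Clec9a were at 0. Batf3, which alone of the 7 could be tested, had 3.35, 5.41 and 7.61 CPM in CD73 KO and 6.92, 15.1 and 18.8 CPM in WT. Marker sums in CD73 KO and WT ran over 739 to 821 and 690 to 755 CPM for 6 B cell genes, 423 to 492 and 376 to 429 CPM for 4 NK cell genes, 1.44 to 1.98 and 2.33 to 3.42 CPM for 3 CD4 T cell genes, and 67.0 to 105 and 47.1 to 63.7 CPM for 4 stromal genes. The part of these marker sums in the family's levels was not tested. In bulk RNA, fewer cells of a type and less RNA per cell cannot be told apart.

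The members lie within 592 kb of chromosome 1, from 173350879 to 173942672 (GRCm38, that is mm10, gene models of GENCODE M21), 3 on the plus strand and 6 on the minus strand. All 9 are annotated as protein-coding. Their promoters carry a recurring stretch, and it is shown because it separates Aim2 and Ifi209 from the other members with an entry. In RefSeq windows running from 250 bases before to 50 after the transcription start (GRCm38.p6), 8 of the 9 members had an entry and Ifi204 had none. The letters GAAA, any 2 bases and GAAA again, the core of the interferon-stimulated response element (ISRE), were searched on both strands. They occurred in a window of 6 of the 8 members, against 3.99% of all 27025 genes with a window. Each sequence below is the 60 bases around the match on the strand of its gene, 5′ to 3′, with the 10 matched letters in capitals. In Ifi209 the capitals mark the 10 letters at the aligned place.
Ifi206, minus strand, chr1:173491324-173491383: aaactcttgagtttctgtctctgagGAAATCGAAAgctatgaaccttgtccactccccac
Ifi213, minus strand, chr1:173599311-173599370: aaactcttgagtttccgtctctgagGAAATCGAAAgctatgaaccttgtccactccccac
Ifi208, plus strand, chr1:173673582-173673641: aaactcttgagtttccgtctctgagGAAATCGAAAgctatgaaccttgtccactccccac
Ifi214, minus strand, chr1:173536002-173536061: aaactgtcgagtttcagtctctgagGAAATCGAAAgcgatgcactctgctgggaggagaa
Ifi209, plus strand, chr1:173630755-173630814: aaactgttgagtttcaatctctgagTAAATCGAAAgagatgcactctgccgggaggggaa
Ifi203, minus strand, chr1:173942493-173942552: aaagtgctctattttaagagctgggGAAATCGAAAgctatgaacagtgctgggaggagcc
Mndal, minus strand, chr1:173880189-173880248: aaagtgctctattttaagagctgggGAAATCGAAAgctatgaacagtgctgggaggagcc

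The printed stretches fall into sets of near-identical sequence. Ifi208 and Ifi213 shared 60 of 60 bases, as did Ifi203 and Mndal, and Ifi206 matched Ifi213 at 59 of 60. Ifi209 matched Ifi214 at 54 of 60 bases. Counted from 1 at the 5′ end of the stretch, with the base of Ifi214 first and that of Ifi209 last, the change G26T falls on the first letter of the match and leaves Ifi209 without the core. The first matched base lay 35 bases before the start in Ifi203, 36 in Mndal, 40 in Ifi206, 58 in Ifi208, 73 in Ifi213 and 79 in Ifi214. Mndal and Ifi203 each had another window, at a different start. That of Mndal held the core on the opposite strand, from 54 bases before its start, and that of Ifi203 held no match. Aim2 held no match in its window. The exact letters GAAATCGAAA, looked for after the matches were seen, occurred in 16 of 27025 genes, and 7 of these were p200 genes: the 6 members and Ifi207. Of the other letters searched on both strands, GAAANGAAA (3.70% of genes) and TTCNNNGAA (9.55%) occurred in 0 members. TATAAA (15.7% of genes) occurred in 5 members, Ifi206, Ifi208, Ifi209, Ifi213 and Ifi214. A match describes letters and is not a measured binding site.

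Aim2 (ENSMUSG00000037860, plus strand, chromosome 1, 173350879 to 173466040) opens the cluster and encodes the inflammasome sensor. It stood at 41.0, 58.2 and 55.1 CPM in CD73 KO and at 45.9, 49.0 and 52.3 CPM in WT. Both groups overlapped, and the WT libraries lay inside the CD73 KO range. The means were 51.4 ± 9.17 and 49.0 ± 3.18 CPM (SD, n = 3 each), and the log2 fold change, CD73 KO against WT throughout, was 0.07 ± 0.15 (SE; adjusted p = 0.900 by edgeR's quasi-likelihood test). Aim2 was therefore the tested member whose level differed least between genotypes.

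Ifi203 (ENSMUSG00000039997, 173920407 to 173942672) and Mndal (ENSMUSG00000090272, 173849126 to 173942491) close the cluster and had the highest mean CPM of the family in each genotype. Mndal encodes a nuclear p200 protein. Ifi203 stood at 358, 311 and 195 CPM in CD73 KO and at 137, 181 and 167 CPM in WT. The lowest CD73 KO library, replicate 3, lay just above the highest WT library, the one labelled WT replicate 2. Its means were 288 ± 83.8 and 162 ± 22.7 CPM (SD, n = 3 each), a log2 fold change of 0.83 ± 0.21 (SE). Mndal stood at 260, 278 and 186 CPM in CD73 KO and at 129, 161 and 184 CPM in WT, so the groups came within 1.01-fold of each other without overlapping. Its means were 241 ± 48.9 and 158 ± 27.3 CPM (SD, n = 3 each), a log2 fold change of 0.61 ± 0.17 (SE). The gene models of these neighbours overlap over 37 bases of exon on the same strand, 0.552% of the exonic length of Ifi203. With the gene model Gm38050 included, the overlap of Mndal was 155 bases, 4.27% of its exonic length. The coding sequence of Mndal was identical to that of Ifi211 at 96.35% of 822 aligned bases. Of the distinct 100-base windows in the transcripts, 6.38% for Mndal and 2.84% for Ifi203 also occurred in another gene, so their reads can be split with other genes.

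Ifi206 (ENSMUSG00000037849, 173468485 to 173491041) lies next to Aim2 on the opposite strand. It stood at 159, 130 and 85.8 CPM in CD73 KO and at 37.3, 72.1 and 44.4 CPM in WT. All CD73 KO libraries lay above all WT libraries, with the library labelled WT replicate 2 the nearest. Its means were 125 ± 36.9 and 51.3 ± 18.4 CPM (SD, n = 3 each), a log2 fold change of 1.29 ± 0.30 (SE). Over 1293 aligned bases its coding sequence was identical to that of Ifi208 at 92.1% and to that of Ifi213 at 92.0%. Of the distinct 100-base windows in its transcripts, 13.1% also occurred in another gene, most often Ifi208, so its reads can be split with other genes.

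Ifi209 (ENSMUSG00000043263, 173630917 to 173647928), whose older RefSeq symbol is Pyhin1, and Ifi214 (ENSMUSG00000070501, 173519717 to 173535957) form a pair of close copies. Their coding sequences were identical at 97.1% of 1182 aligned bases. Ifi209 stood at 278, 175 and 125 CPM in CD73 KO and at 63.6, 90.7 and 58.5 CPM in WT, a log2 fold change of 1.44 ± 0.31 (SE). Ifi214 stood at 61.9, 40.1 and 33.6 CPM in CD73 KO and at 11.8, 29.3 and 14.2 CPM in WT, a log2 fold change of 1.30 ± 0.38 (SE). Neither gene's groups overlapped, though for Ifi214 the library labelled WT replicate 2 came close to CD73 KO replicate 3. Of the distinct 100-base windows in the transcripts, 16.9% of those of Ifi209 also occurred in Ifi214, so reads can be split between the copies. The sum of both genes does not depend on how counted reads are split between them, but it lacks any reads that were dropped. It was 238 ± 92.6 CPM in CD73 KO against 89.4 ± 26.6 CPM in WT (SD, n = 3 each), a ratio of 2.66.

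Ifi208 (ENSMUSG00000066677, 173673675 to 173698395) and Ifi213 (ENSMUSG00000073491, 173566283 to 173599274), whose older RefSeq symbols are Pydc3 and Pydc4 for pyrin domain containing, are a second pair of copies. Their coding sequences were identical at 96.5% of 1767 aligned bases. Ifi213 stood at 71.5, 46.6 and 32.3 CPM in CD73 KO and at 7.47, 13.8 and 11.2 CPM in WT. The lowest CD73 KO library was 2.34-fold above the highest WT library, the widest such gap among the 9 members. Its means were 50.2 ± 19.8 and 10.9 ± 3.21 CPM (SD, n = 3 each), a ratio of 4.62, and its log2 fold change of 2.23 ± 0.33 (SE) ranked 9 from the top of 12242 tested genes. Ifi208 stood at 98.2, 57.2 and 45.5 CPM in CD73 KO and at 24.2, 36.1 and 16.8 CPM in WT. Its groups did not overlap either, and its log2 fold change was 1.38 ± 0.36 (SE). The copies did not keep a fixed ratio. Ifi208 over Ifi213 was 1.37, 1.23 and 1.41 in CD73 KO and 3.24, 2.61 and 1.49 in WT. Of the 100-base windows in their transcripts, 5.92% for Ifi208 and 3.30% for Ifi213 also occurred in another gene. Their summed level was 117 ± 47.3 CPM in CD73 KO against 36.6 ± 11.7 CPM in WT (SD, n = 3 each), a ratio of 3.20.

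Ifi204 (ENSMUSG00000073489, 173747293 to 173766943), a much studied DNA sensor of macrophages, was too low to test. It had 13, 7 and 4 counts in CD73 KO and 1, 6 and 4 in WT. CD73 KO replicate 1 came to 0.692 CPM (exact 95% Poisson interval 0.368 to 1.18) and WT replicate 1 to 0.0778 CPM (0.00197 to 0.433). These intervals cover counting error only. Ifi204 shared 96.8% of 1234 aligned coding bases with Ifi211, so the split of reads between these copies is uncertain, and no difference between genotypes was detectable at this depth.

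**Figure D1:**
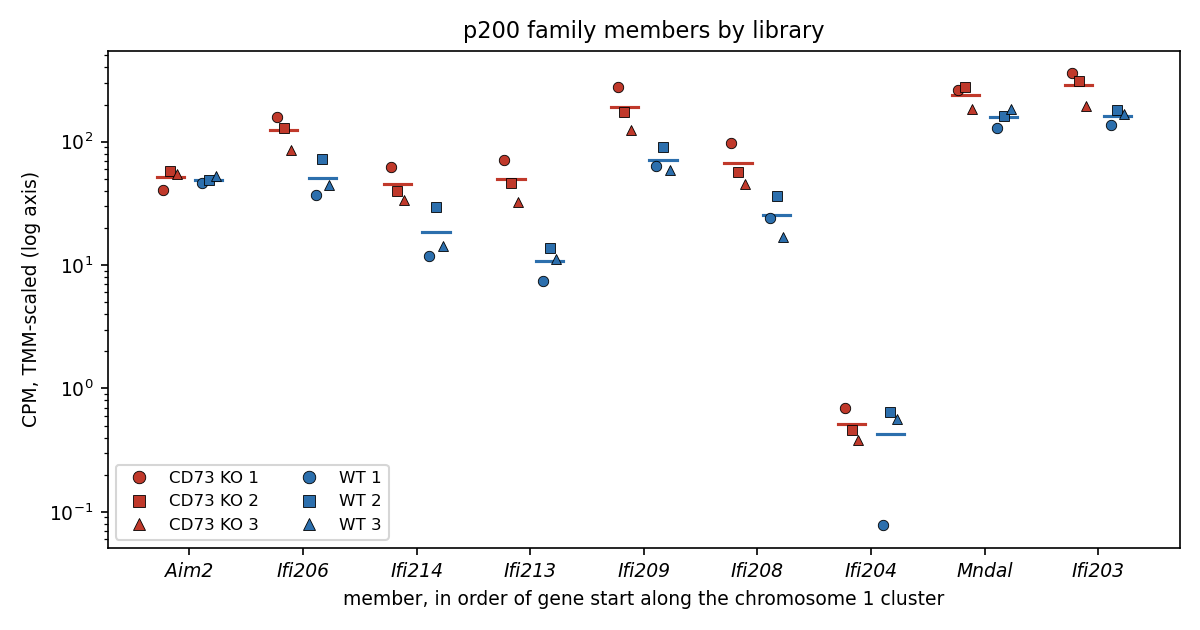
Level of each p200 member in each library (CPM, TMM-scaled, log axis), with CD73 KO in red, WT in blue, a symbol for each replicate and a line at the group mean (n = 3). All red points lie above all blue points except for Aim2 and Ifi204, where the groups overlap.

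Read as a family, all 8 tested members had a fitted log2 fold change above 0, as did 52.3% of all tested genes. The median was 1.30 for the members and 0.01 for all genes. In 7 members, all but Aim2, the groups did not overlap and CD73 KO was higher, as in 7.59% of tested genes. A log2 fold change of 1 or more was reached by 5 members and by 1.49% of genes. By edgeR's quasi-likelihood test 0 members passed an adjusted p of 0.05 (0.0572% of genes did), with adjusted values from 0.135 for Ifi213 to 0.900 for Aim2. At an unadjusted p under 0.05, 7 members were higher in CD73 KO, against 5.75% of genes. DESeq2 called 4 members, against 0.69% of 13628 genes: Ifi213 (adjusted p = 4.38e-12), Ifi206 (0.000140), Ifi203 (0.00850) and Ifi209 (0.0403). Limma-voom called 0. Since this contrast chose the members, these counts describe them and lend no support.

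The libraries kept nearly the same order from member to member. CD73 KO replicate 1 was the highest CD73 KO library in 6 of 8 tested members, and CD73 KO replicate 3 the lowest in 7. That is also the order of depth in CD73 KO, whose libraries held 19382950, 14867558 and 10202128 counts. In WT the deepest library, WT replicate 1, was the lowest in 6 members, all but Ifi208 and Ifi209. The library labelled WT replicate 2 was the highest WT library in 6 members, Ifi203, Ifi206, Ifi208, Ifi209, Ifi213 and Ifi214. Mndal and Aim2 had another order, with their highest values in CD73 KO replicate 2 and WT replicate 3. The part of depth, and of the Nt5e level in the library labelled WT replicate 2, was not tested.

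**Figure D2:**
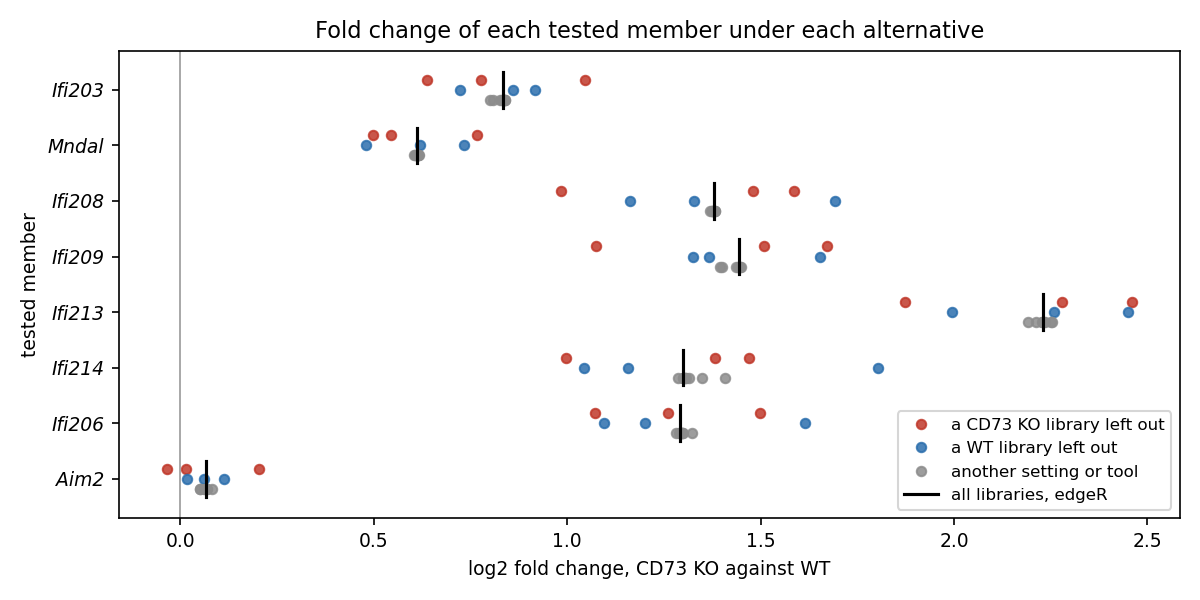
Log2 fold change (CD73 KO against WT) of each tested member with all libraries (black line), with each library left out (red and blue points) and under another setting or tool (grey points). All values lie above 0 except that of Aim2 without CD73 KO replicate 2, at -0.03.

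The spread among libraries was itself shared. Over the 6 libraries, the log2 CPM of Ifi206 followed the mean of the other tested members with Pearson's r = 0.99, Ifi209 and Ifi213 with 0.98, Ifi214 and Ifi203 with 0.96, Ifi208 with 0.93 and Mndal with 0.87. Aim2 did not follow it, with r = -0.10. These values describe 6 libraries that share the genotype difference and the depth of each library, and close copies share reads. With the group means removed, r was 0.98 for Ifi206, 0.94 for Ifi213, 0.60 for Mndal and -0.52 for Aim2.

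Together the 9 members came to 1329, 1096 and 759 CPM in CD73 KO and to 457, 634 and 549 CPM in WT. Without Aim2 the sum was 1010 ± 293 CPM in CD73 KO against 498 ± 87.1 CPM in WT (SD, n = 3 each), a ratio of 2.03. For each CPM of Aim2, the other members together had 31.4, 17.8 and 12.8 CPM in CD73 KO and 8.95, 11.9 and 9.51 CPM in WT. Every CD73 KO library thus lay above every WT library in this ratio, replicate 3 by the least.

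The make-up of the family's counts differed as well. Ifi213 took 5.38%, 4.25% and 4.26% of them in CD73 KO and 1.64%, 2.18% and 2.05% in WT. Aim2 took 3.08%, 5.31% and 7.26% in CD73 KO and 10.0%, 7.73% and 9.51% in WT. Neither gene's shares overlapped between genotypes, Ifi213 being higher and Aim2 lower in CD73 KO. Ifi209 took 20.9%, 16.0% and 16.5% against 13.9%, 14.3% and 10.7%. Ifi203 took 25.7% to 28.3% in CD73 KO and 28.6% to 30.5% in WT, and held the largest or, in WT replicate 3, the second largest share. Mndal took 19.6% to 25.3% in CD73 KO and 25.4% to 33.5% in WT. The shares of Ifi209, Ifi203 and Mndal did not overlap between genotypes either, higher in CD73 KO for Ifi209 and lower for the others. Shares of a sum are tied to one another, so they restate the differences in level given above.

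**Figure D3:**
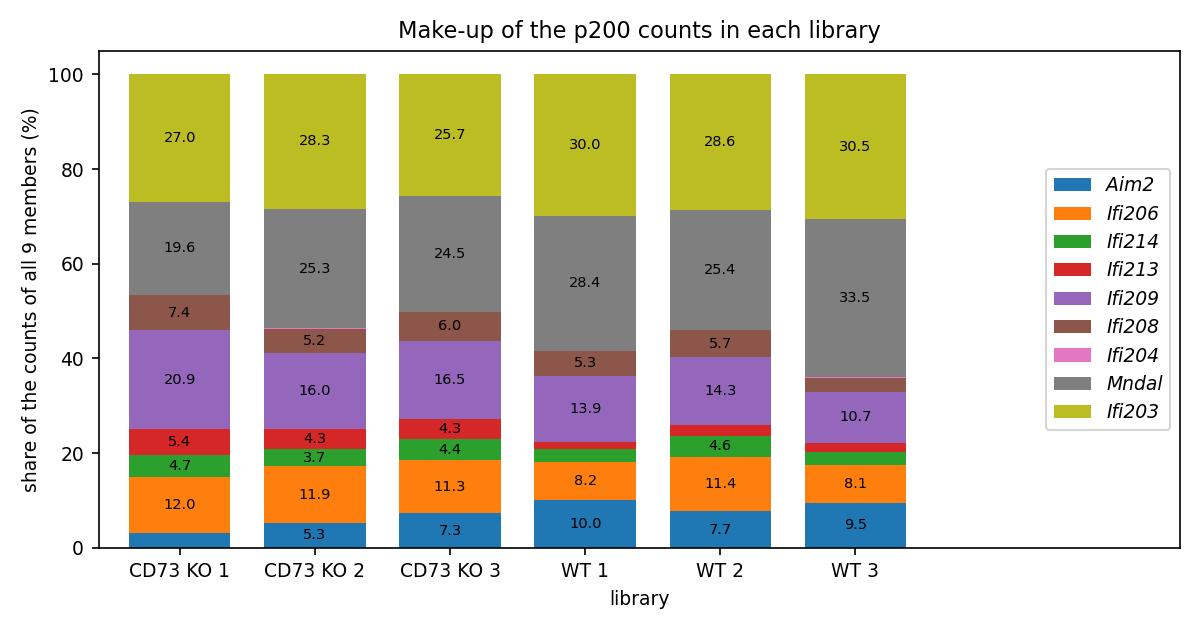
Share of the counts of all 9 members taken by each member in each library (%), stacked in cluster order. Aim2 narrows from 7.73% to 10.0% in WT to 3.08% to 7.26% in CD73 KO, while Ifi213 widens from 1.64% to 2.18% to 4.25% to 5.38%.

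Levels of different genes were compared per kilobase of exon. In WT, Mndal led with 43.6 ± 7.54 CPM per kb (SD, n = 3), above Ifi203 at 24.1 ± 3.38, whose range it did not touch. Ifi209 at 20.0 ± 4.89, Ifi206 at 16.8 ± 6.03 and Aim2 at 14.0 ± 0.910 CPM per kb followed, each overlapping its neighbour in the order. A gap then separated Aim2 from Ifi208 at 4.89 ± 1.85, Ifi214 at 2.28 ± 1.17 and Ifi213 at 1.59 ± 0.469 CPM per kb, which overlapped in turn, and Ifi204 was last at 0.120 ± 0.0859. In CD73 KO the first 4 were Mndal at 66.5 ± 13.5, Ifi209 at 54.4 ± 21.96, Ifi203 at 43.0 ± 12.5 and Ifi206 at 40.9 ± 12.1 CPM per kb (SD, n = 3), neighbours again overlapping. All 4 lay clear of Aim2 at 14.7 ± 2.62. Aim2, whose range overlapped that of Ifi206 in WT, overlapped Ifi208 (12.7 ± 5.26 CPM per kb) in CD73 KO. Ifi213 came to 7.33 ± 2.90 and Ifi214 to 5.57 ± 1.83 CPM per kb there, with overlapping ranges. Exons were merged over all annotated transcripts, and the levels and their order depend on that choice. With the longest transcript alone, WT means came to 78.1 CPM per kb for Mndal, 43.1 for Ifi203, 8.59 for Ifi208, 3.86 for Ifi214 and 3.51 for Ifi213. In CD73 KO, Mndal then had 119 and Ifi203 76.7 CPM per kb, above Ifi209 at 56.1, and Ifi208 had 22.4, above Aim2 at 18.1. Ifi213 and Ifi214 then had 16.2 and 9.45 CPM per kb.

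The members were also placed by position. Aim2 and Ifi206 are neighbours and had log2 fold changes of 0.07 and 1.29, while the far end, Mndal and Ifi203, had 0.61 and 0.83. The members between them, Ifi214, Ifi213, Ifi209 and Ifi208, had 1.30 to 2.23. Ifi209, without the ISRE core in its window, had 1.44, inside the range of the 6 members that carry it (0.61 to 2.23), and Aim2, also without it, lay below that range. Of the other p200 genes of the locus, Ifi211 alone could be tested. Ifi202b, which encodes a p200 protein without a pyrin domain, had 0 counts in every library, where the floor of 3 counts is 0.160 to 0.427 CPM. Ifi207 had at most 1 count, although its promoter window holds the same 10 letters, and Ifi205 at most 4. Ifi211 had 41, 108 and 12 counts in CD73 KO and 1, 17 and 15 in WT, with overlapping groups. Its log2 fold change was 1.52 ± 0.96 (SE, adjusted p = 0.646 by edgeR). Of the distinct 100-base windows in its transcript, 56.9% also occurred in another gene, most often Ifi205, so its reads can be split with other genes. Within 1 Mb outside the cluster, 38 protein-coding genes were in the table and 3 could be tested. Their log2 fold changes were 0.23 ± 0.12 for Pigm, -0.14 ± 0.12 for Tagln2 and -0.25 ± 0.34 for Dusp23 (SE), none with an unadjusted p under 0.05 by edgeR. All 19 olfactory receptor genes there had 0 counts.

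**Figure D4:**
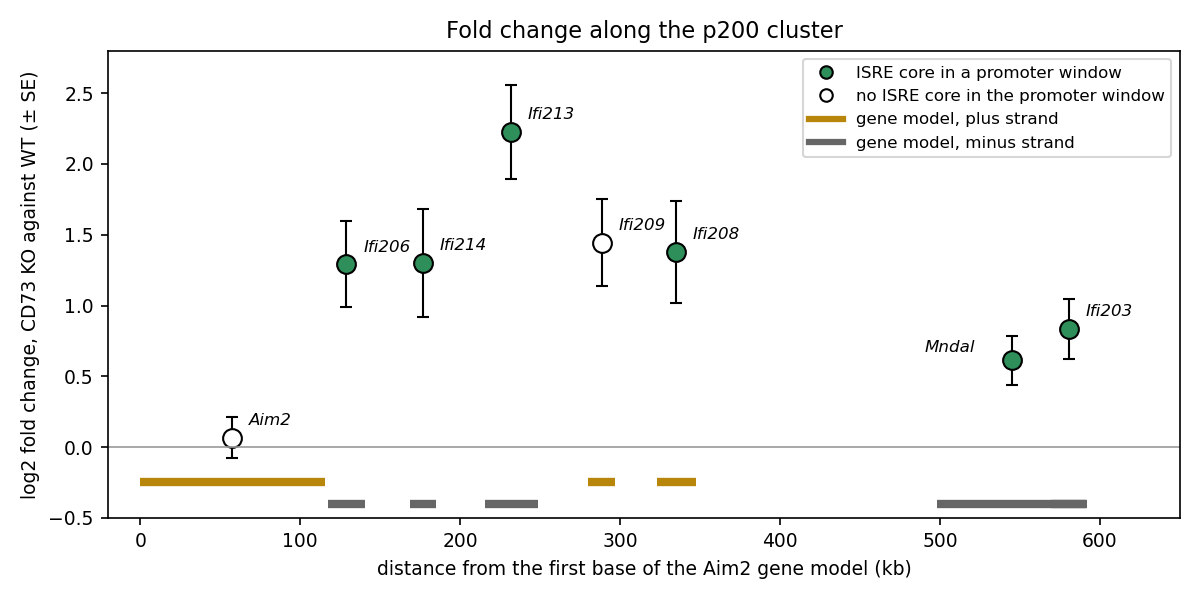
Log2 fold change (CD73 KO against WT, bars ± SE) of the 8 tested members at the centre of their gene models, by distance from the first base of Aim2 (kb); filled points have the ISRE core in a promoter window. Aim2 sits at 0.07 beside Ifi206 at 1.29, and Ifi213 is the highest at 2.23.

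The proteins that act with AIM2 were compared next. Of 16 inflammasome genes listed, 10 could be tested, 9 were higher in CD73 KO, and 0 passed the adjusted threshold by edgeR, with 4 higher at an unadjusted p under 0.05. DESeq2 called 1, Zbp1, and limma-voom 0. Over all tested genes, 52.3% were above 0, 5.75% were higher at that unadjusted p by edgeR, and DESeq2 called 0.69%. Their median log2 fold change was 0.17. Pycard, which encodes the adaptor ASC, stood at 0.09 ± 0.12 and Casp1, the caspase, at 0.08 ± 0.19 (log2 fold change ± SE), so both groups of each overlapped as for Aim2. Gsdmd, the pore-forming substrate, had 37.8, 36.2 and 42.6 CPM in CD73 KO and 30.4, 25.8 and 30.9 CPM in WT, without overlap (0.42 ± 0.13). Il18, the cytokine, was low, at 2.41 to 5.80 CPM in CD73 KO and 1.17 to 2.42 CPM in WT, overlapping by a narrow margin (1.13 ± 0.39). Zbp1, an interferon-induced nucleic acid sensor, had 110, 94.3 and 74.7 CPM in CD73 KO and 31.1, 52.6 and 57.1 CPM in WT (1.00 ± 0.23). The lowest of the tested genes were Nek7 at -0.03 ± 0.12 and Naip5 at 0.05 ± 0.51. Il1b and Mefv, the pyrin gene, had 0 counts in all libraries.

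Genes of DNA sensing through STING, an adaptor with which several p200 proteins have been linked, were described in the same way. Of 16 symbols listed, 2 are other names of genes already in the list, and of the 14 genes 13 could be tested. Trex1 had 0 counts in all libraries, and absent RNA cannot be told apart from reads left uncounted. Of the 13, 9 were higher in CD73 KO, 0 passed the adjusted threshold by edgeR and 5 were higher at an unadjusted p under 0.05, with a median log2 fold change of 0.08. DESeq2 and limma-voom called 0 each. Of all tested genes, 52.3% were above 0 and 5.75% were higher at that unadjusted p by edgeR. Cgas, the enzyme that makes the messenger for STING, had 0.51 ± 0.20 with groups that did not overlap. Tmem173, which encodes STING, had -0.14 ± 0.14 with groups that did. Ddx58, the RNA sensor RIG-I, had 0.77 ± 0.24 and Enpp1, which degrades the messenger, 0.57 ± 0.16 (log2 fold change ± SE). Beside Tmem173, the lowest was Ddx41 at -0.07 ± 0.12.

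The family was then set beside the interferon system that is known to induce it. Of 16 genes of receptor signalling, all tested, 13 were higher in CD73 KO, 0 passed the adjusted threshold by edgeR and 9 were higher at an unadjusted p under 0.05, with a median log2 fold change of 0.49. DESeq2 called 3 of them, Irf7, Irf9 and Stat2, and limma-voom 0. The shares over all tested genes were 52.3% above 0, 5.75% higher at that unadjusted p by edgeR, and 0.69% called by DESeq2. The transcription factor genes Irf7 and Irf9 had 1.30 ± 0.31 and 0.71 ± 0.14 (SE), without overlap. Usp18 and Isg15, both interferon-induced, had 1.73 ± 0.49 and 1.70 ± 0.65 (SE). The lowest were Irf8 at -0.13 ± 0.27 and Tyk2 at -0.08 ± 0.10. Of 21 interferon genes, 15 had 0 counts in every library, Ifnb1 among them. Only Ifng could be tested, and it was lower in CD73 KO, at 50.2, 51.0 and 47.7 CPM against 61.3, 75.3 and 56.0 CPM in WT (log2 fold change -0.37 ± 0.13 SE, adjusted p = 0.415 by edgeR). The median log2 fold change was 1.45 for 22 core interferon-stimulated genes, 0.73 for 17 tested guanylate-binding proteins and immunity-related GTPases, and 0.47 for 7 tested Schlafen genes, beside 1.30 for the p200 members. In each of these lists all tested genes were higher in CD73 KO, as were 52.3% of all genes, and 0 passed the adjusted threshold by edgeR. Irf7, Usp18 and Isg15 of the core list are also counted in the receptor list, and Ddx58 in the STING list. At an unadjusted p under 0.05 by edgeR, 18, 12 and 2 of them were higher, against 5.75% of all genes. DESeq2 called 8, 7 and 1, against 0.69% of all genes, and limma-voom called 0 in each. Log2 fold changes ran from 0.29 ± 0.18 for Bst2 and 0.59 ± 0.21 for Ifit2 up to 2.58 ± 0.50 for Oasl2 and 3.93 ± 0.87 for Ifi44 in the core list (SE). They ran from 0.07 ± 0.13 for Gbp3 and 0.19 ± 0.20 for Gbp7 up to 1.52 ± 0.34 for Gbp10 and 2.57 ± 0.53 for Iigp1 among the GTPases. Among the Schlafen genes they ran from 0.10 ± 0.16 for Slfn9 and 0.26 ± 0.16 for Slfn3 up to 1.18 ± 0.17 for Slfn1 and 1.59 ± 0.70 for Slfn5. The member with the largest value, Ifi213 at 2.23, lay inside the ranges of the core list and of the GTPases.

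Library by library, the p200 sum without Aim2 was set beside the summed core interferon-stimulated genes. The latter came to 1289, 1100 and 731 CPM in CD73 KO and 321, 612 and 677 CPM in WT, beside 1288, 1038 and 704 CPM and 411, 585 and 497 CPM for the family. The order of libraries was the same but for the places of WT replicates 2 and 3. Aim2 showed no such order, being lowest in CD73 KO replicate 1, where the interferon-stimulated sum was highest. Family and list were both chosen with the difference between genotypes known, and the order within CD73 KO is also that of depth. The shared order of the sums is thus a description, and a link between them was not tested.

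**Figure D5:**
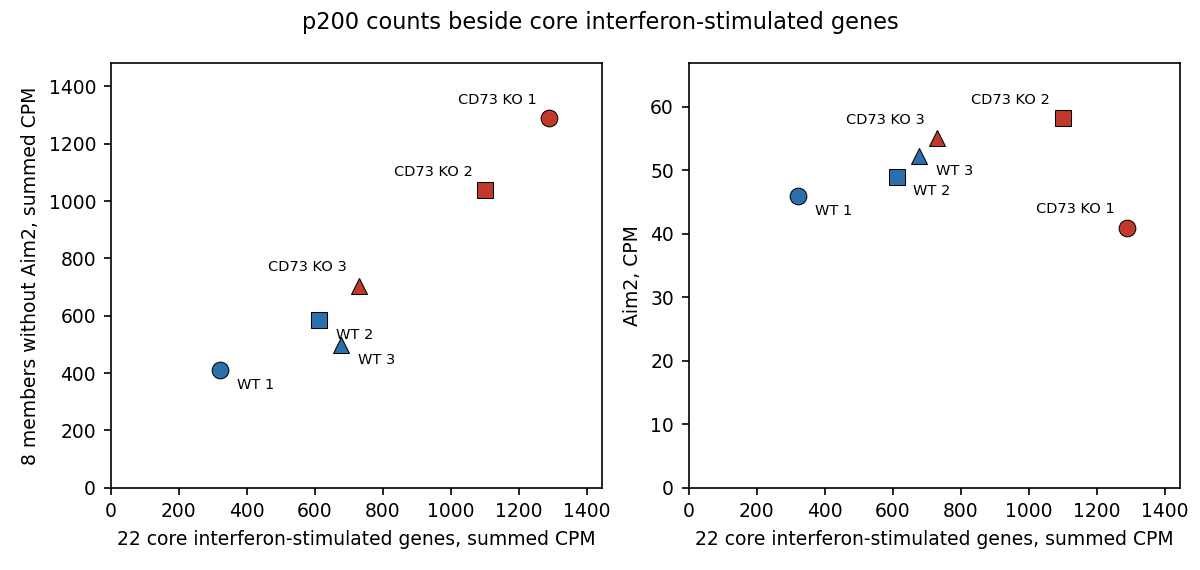
Summed CPM of the 8 members without Aim2 (left) and CPM of Aim2 (right) against the summed CPM of 22 core interferon-stimulated genes, with 1 point per library and symbols by replicate. On the left CD73 KO replicate 1 is the highest on both axes and WT replicate 1 the lowest, while on the right Aim2 stays between 41.0 and 58.2 CPM.

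Among 9170 genes outside the family with a mean of at least 5 CPM, pseudogenes and unnamed gene models left out, those whose pattern over the 6 libraries was most like the mean of the tested members were B2m (Pearson's r = 0.997), Ms4a4c (0.996), Lgals9 (0.986), Neil3 (0.985) and Rfx3 (0.977), followed by Birc3, Trafd1, Nedd4l, Sp100 and Igf1r down to 0.968. B2m, the light chain of MHC class I, had 2732, 2523 and 2271 CPM in CD73 KO and 1657, 2041 and 1790 CPM in WT. Ms4a4c, a T cell membrane protein gene, had 67.4, 50.2 and 38.9 CPM in CD73 KO and 19.3, 26.8 and 20.9 CPM in WT. Both share with Ifi203, Ifi206, Ifi213 and Ifi214 the order CD73 KO replicates 1, 2 and 3, then WT replicates 2, 3 and 1. The ranking rests on 6 libraries that share the genotype difference and the depth of each library.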

How the data were processed

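The deposited table gives raw read counts, with genes named by Ensembl identifiers. Per the submitters' processing notes, the authors used fastp, HISAT2 and featureCounts with mm10. Their versions, the annotation release and the strand setting used in counting were not given in the sources used here. Reads that fit near-identical copies may be split or dropped, and antisense reads cannot be told apart.

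The members and lists were chosen with earlier results of these data known. Genes were kept with filterByExpr (minimum count 10, minimum total 15), which left 12242. Genotypes were compared with edgeR 4.0.16 (TMM, robust quasi-likelihood F-test, legacy fit) in R 4.3.3, with Benjamini-Hochberg adjustment over all tested genes and a threshold of 0.05. The fit was tested on simulated data. The standard error is the log2 fold change divided by the square root of F.

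Named genes were all 9 members, the 2 highest and 2 lowest tested genes of each other list, fixed pathway genes, and the 10 genes of highest Pearson's r (log2 CPM, prior count 2). Mefv, Il1b, Stat2, Parp11, Ripk1, the neighbours within 1 Mb and the other p200 genes were named after their values were seen.

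Gene models and coding sequences came from GENCODE M21, compared with blastn (E-value limit 1e-10), and promoters from RefSeq. Alternatives were RLE factors, library size alone, no filter, 1 CPM in 3 libraries, no robust estimation, the edgeR 4 fit, the replicate block, each library left out, DESeq2 1.42.0, limma-voom 3.58.1, the longest transcript, windows of 50 and 150 bases, and a motif with a 1-base spacer. The exact letters, the sums of copies and the non-overlap counts with a library left out were added after seeing the data.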

Additional observations from a re-analysis of the deposited data

How the results depend on the processing

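Over 15 alternatives, 119 of 120 fold changes of tested members kept their direction, and 10 passed the adjusted threshold. The exception was Aim2, at a log2 fold change of -0.033 without CD73 KO replicate 2 (range over left-out libraries -0.033 to 0.20). The members called went from 0 to 4 without a filter (Ifi203, Ifi206, Ifi213 and Mndal) and to 4 by DESeq2, and genes called over the whole table from 7 to 298 and 94. The cause was not tested. With a library left out, 0 to 1 members were called, Ifi213 alone, without CD73 KO replicate 1 (adjusted p = 0.0400 by edgeR) or replicate 3 (0.0462). Genes called over the whole table then ran from 4, without CD73 KO replicate 2 or WT replicate 2, to 8. The members' median log2 fold change ran from 0.99 without CD73 KO replicate 1 to 1.63 without WT replicate 2.

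Same-numbered libraries correlated at 0.15, -0.17 and 0.01 in their deviations from the group means, so the numbers were not taken to pair them. With the replicate block, 5 genes and 0 members were called, and the median was 1.32. With a 1-base spacer 0 members held the motif. With 50-base windows, shared windows ran from 0.742% for Aim2 to 33.7% for Ifi209, and with 150-base windows from 0% to 9.28%. With the longest transcript, Aim2 stood above Ifi206 in WT, at 17.3 against 16.8 CPM per kb. Leaving out a library can only add genes whose groups do not overlap: the share higher in CD73 KO went from 7.59% of genes to between 9.8% and 16.4%, and Aim2 joined the 7 members without CD73 KO replicate 1. Depth limits Ifi202b, Ifi205 and Ifi207, which lay under 3 counts in most libraries, and Ifi204, which had 1 to 13 counts.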

Other observations

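The 10 letters GAAATCGAAA shared by 6 members were also found in the promoter windows of 9 genes outside the p200 locus. These include Ddx58, Parp11 and Ripk1. Ddx58 had 145, 113 and 73.3 CPM in CD73 KO and 54.8, 76.3 and 64.6 CPM in WT, with overlapping groups. Ifi205 and Ifi211, both p200 genes with the ISRE core and low counts, carry other letters between its repeats. These letters were looked for after the members' matches had been seen.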
